A study of Mus musculus with 16 samples.

Results

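The nuclear genes of the mitochondrial respiratory chain were examined as RNAs bound to chromatin in mouse embryonic stem cells. Members were the protein-coding RNAs (pcRNAs) whose name began with Nduf, Cox and a digit, Uqcr, Atp5 or Sdha to Sdhd, or was Cyc1 or Cycs. Of 10736 pcRNA names in the tables of both conditions together, 41 were members. They supplied 1442 of 1261178 pcRNA pairs in Input and 1617 of 1359456 in H3K27me3-RADIP. A pair is a sequenced molecule that joins a tag of 25 bases of an RNA to a tag of 25 bases of the DNA that lay beside it.

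Both conditions came from the PGK12.1 line of mouse embryonic stem cells, grown with LIF and fixed in 1% formaldehyde. In H3K27me3-RADIP the joined molecules were selected with an antibody against the histone mark H3K27me3. In Input, 10% of the lysate was carried through without antibody. The labels list 8 libraries for each condition. The study describes fewer biological replicates, and which libraries share one is not given in the sources used here. The significant pairs of each condition were merged into 1 table, so there was no replicate for any value, and all intervals and p-values cover counting error between the merged libraries only. The tables held 1305107 pairs in Input and 1415135 in H3K27me3-RADIP, and no pair had a q-value above 0.1. The smallest listed combination of an RNA and a 25-kb bin of DNA held 7 pairs in each table, so weaker contacts are not seen. Pairs thus entered or left a table as whole combinations, while the intervals and tests treat each pair as independent. The intervals are therefore likely too narrow and the p-values too small. Where 2 values stand together without a name, the first is that of Input. Of 12 stem cell markers, 6 were listed in Input, with 3014 pairs in sum, and 7 in H3K27me3-RADIP, with 3170. The highest were Esrrb at 2388 and 2500 and Tfcp2l1 at 441 and 484. Of the 4 with at least 50 pairs, Sall4 was past the fold of 0.5 on the log2 scale in one direction, with 22 and 52 pairs (log2 ratio 1.13, 95% counting interval 0.39 to 1.92), and Zfp42 in the other, with 130 and 98 (-0.52, -0.91 to -0.13). Pou5f1, Nanog, Dppa4, Tdgf1 and Prdm14 were not listed. Of 12 markers of differentiated cells, 4 were listed in Input, with 168 pairs in sum, and 7 in H3K27me3-RADIP, with 208. Pax6 (21 pairs), Kdr (8) and Col1a1 (7) were listed in H3K27me3-RADIP only. The part of these markers in the results was not tested.

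The respiratory chain lies in the inner membrane of the mitochondrion. Complex I (the Nduf genes) and complex II (the Sdh genes) pass electrons from NADH and succinate to ubiquinone, complex III (Uqcr genes and Cyc1) passes them to cytochrome c, and complex IV (Cox genes) passes them to oxygen. ATP synthase (Atp5 genes) uses the proton gradient that results. Most subunits are made from nuclear genes and imported, and further nuclear genes encode assembly factors that build the complexes without staying in them. H3K27me3 is laid down by Polycomb repressive complex 2 and marks repressed chromatin, while genes of the respiratory chain are transcribed in nearly every cell.

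The 6 genes that carry most of the comparisons below were Cox10, Ndufaf2, Atp5o, Ndufs4, Ndufa10 and Sdhaf2. To show what was sequenced, the RNA tag found in the most pairs (then in the most bins) is given for each, in the sense of the RNA, written 5′ to 3′ with the centre base in capitals. Distances were taken from that base. The letters are those of the mm10 reference at the coordinates of the tag.
Cox10: taaatatatgaaAgatccctctaag
Ndufaf2: cttcttcagtgtTgacctccagctc
Atp5o: cagtgttgtggcAcacagctgtatt
Ndufs4: gttatgagttctGccttaataatgt
Ndufa10: ttcctggaggcaAtgtacaaccagg
Sdhaf2: cacagttgagacAttcagtcactgg
Each of these 6 tags had 1 exact match in the reference chromosomes. All lay on the minus strand, and all but that of Ndufa10 lay in introns. The Cox10 tag (chr11:64077455-64077479) lay 2.00 kb inside the gene, and its 5 pairs in Input and 4 in H3K27me3-RADIP joined it to 6 bins, from 6.36 kb to 948.5 kb away. The Ndufa10 tag (chr1:92467399-92467423) lay in coding sequence and reached 536.9 kb. The Ndufaf2 tag (chr13:108074128-108074152) reached 497.3 kb, and the Ndufs4 tag (chr13:114290525-114290549) reached 52.1 kb. The Atp5o tag (chr16:91690280-91690304) was found only in Input, with 4 pairs, as was the Sdhaf2 tag (chr19:10508065-10508089), with 3. Over all members, 96.9% of RNA tags in Input and 97.8% in H3K27me3-RADIP matched the reference at 1 place, as did every DNA tag.

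The first question was which genes of the chain were listed at all. GENCODE M21 holds 109 protein-coding gene models with member names, and 42 of them were listed in at least 1 library. Complex I had 15 of 46 models listed, complex II 4 of 8, complex III 4 of 9, complex IV 10 of 27 and ATP synthase 9 of 18. Cycs, the cytochrome c gene, was not listed. Listed models had a median length of 15.3 kb and unlisted ones 5.42 kb. Of models under 10 kb, 14 of 71 were listed, or 19.7%, against 12.6% of all protein-coding genes of that length. From 10 to 30 kb, 19 of 28 were listed, or 67.9%, against 51.8%. All 4 models of 30 to 100 kb were listed, against 79.8% of all genes, and 5 of the 6 longer ones, or 83.3%, against 90.1%. Over all lengths, 38.5% of the models were listed, against 48.8% of 21951 protein-coding genes. The members' median length was 7.46 kb, so most of the chain lay in the length class in which few genes of any kind were listed.

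Pairs were spread very unevenly over the 41 genes. Cox10, Atp5o, Ndufaf2, Ndufs4 and Ndufa10 together supplied 72.5% of the members' pairs in Input and 76.0% in H3K27me3-RADIP. Cox10 alone supplied 25.7% and 35.7%. Contacts with a single bin were all that was listed for 24 of the 32 genes found in Input and 24 of the 35 found in H3K27me3-RADIP.

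**Figure D1:**
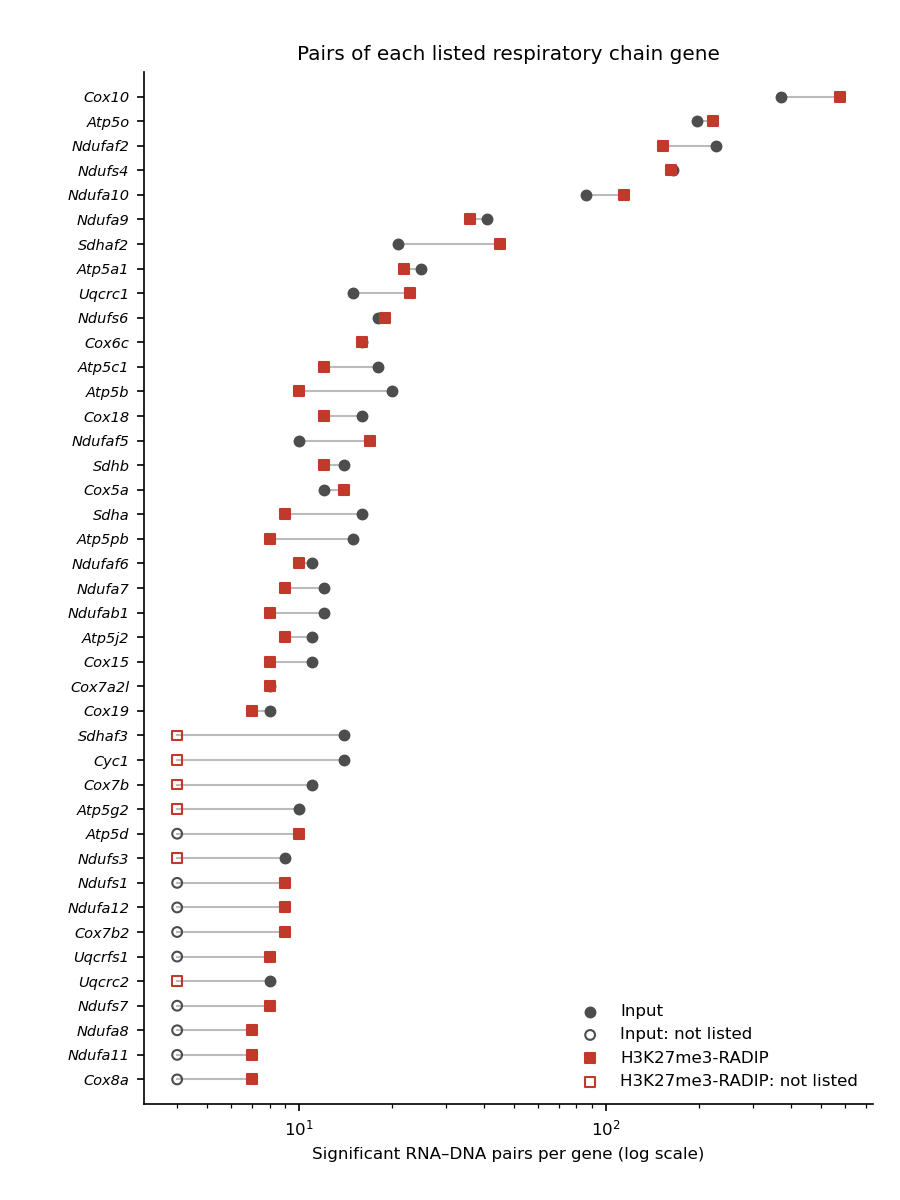
Significant pairs of each listed gene of the chain (log axis) in Input (circles) and H3K27me3-RADIP (squares), with open symbols at the left edge for genes not listed in a library. Cox10 stands highest in both libraries, at 371 and 577 pairs, and 15 genes at the bottom are listed in only 1 library.

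Complex I supplied 591 and 568 pairs. Its leading gene was Ndufaf2, an assembly factor, at chr13:108002715-108158623, with 227 and 153 pairs. Ndufs4, an accessory subunit of the matrix arm at chr13:114287795-114388258, had 165 and 162. Ndufa10, an accessory subunit of the membrane arm at chr1:92439010-92473860, had 86 and 114, and Ndufa9, another accessory subunit, had 41 and 36. Core subunits of the electron path had few pairs or none. Ndufs1 was listed with 9 pairs and Ndufs7 with 8, both in H3K27me3-RADIP only, and Ndufs3 with 9 pairs in Input only, while Ndufs8, Ndufv1 and Ndufv2 were listed in neither library.

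Complex II had 65 and 66 pairs, and these were divided differently in the libraries. For Sdhaf2, which helps attach the flavin cofactor to the catalytic subunit, 21 and 45 pairs were listed. The catalytic subunits themselves had fewer, with 16 and 9 pairs for Sdha and 14 and 12 for Sdhb. Sdhaf3, an assembly factor of the iron-sulphur subunit, had 14 pairs in Input and was not listed in H3K27me3-RADIP.

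Complex III had only 37 and 31 pairs. Cyc1, the cytochrome subunit that hands electrons on to cytochrome c, had 14 pairs in Input and none listed in H3K27me3-RADIP. Of its 14 tags, 9 lay in coding sequence. Uqcrc1, a core protein, had 15 and 23 pairs. Uqcrfs1, the Rieske iron-sulphur protein, had 8 pairs in H3K27me3-RADIP only, and Uqcrc2, another core protein, had 8 in Input only.

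Complex IV had 453 and 658 pairs, and most of them belonged to Cox10, the farnesyltransferase of haem A synthesis, at chr11:63962627-64079468, with 371 and 577. Cox15, which acts at the next step of the same synthesis, had 11 and 8. Among the subunits, Cox6c had 16 pairs in each library and Cox5a had 12 and 14. Cox7b had 11 pairs in Input only, while its paralog Cox7b2, a gene of 105.4 kb, had 9 in H3K27me3-RADIP only, all of them intronic.

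ATP synthase had 296 and 294 pairs, of which the name Atp5o had 197 and 223. This name stands for 2 gene models. The gene of the peripheral stalk subunit itself (chr16:91925214-91931687) had 0 and 7 pairs. All others belonged to a model of 242.6 kb on the same strand (chr16:91684398-91926982) that runs on through Cryzl1. Of the RNA tags of this long model, 61.9% in Input and 60.2% in H3K27me3-RADIP lay within Cryzl1, which had 0 pairs of its own, and only 2 and 1 tags lay within the short Atp5o gene. Whether these tags came from Atp5o or Cryzl1 transcripts cannot be told apart, and the pairs of Atp5o are therefore uncertain as a measure of the subunit's RNA. Atp5a1 and Atp5b, subunits of the head of the enzyme, had 25 and 22 pairs and 20 and 10 pairs.

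The members' share of all pcRNA pairs was 0.114% in Input and 0.119% in H3K27me3-RADIP. The difference of 0.00461 percentage points (95% Newcombe interval -0.00368 to 0.0129) did not pass a 2-sided Fisher's exact test on pairs (adjusted p = 0.416 over 9 shares compared). Its sign depended on Cox10, since without it the members held 0.0849% and 0.0765%. That difference of -0.00842 percentage points (-0.0153 to -0.00154) was just past the 0.05 limit of the same Fisher's exact test (adjusted p = 0.0496).

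Among genes with at least 50 pairs in both libraries together, 2 of 7 members had a share at least 0.5 higher on the log2 scale in H3K27me3-RADIP, against 14.6% of all such pcRNAs, and 1 of 7 was as much lower, against 23.3%. With 7 genes these counts are near the background. The 2 were Cox10, with a log2 ratio of 0.53 (95% counting interval 0.34 to 0.72), and Sdhaf2, with 0.99 (0.21 to 1.81). Ndufaf2 was lower, with -0.68 (-0.98 to -0.38). The ratio was 0.30 for Ndufa10, 0.07 for Atp5o, -0.13 for Ndufs4 and -0.30 for Ndufa9, with intervals that held 0. Cox10 sat close to the limit, and its ratio was 0.47 with a q-value limit of 0.01. The ratio of Sdhaf2 was 0.71 (-0.10 to 1.56) with that limit and 0.82 (-0.03 to 1.71) with repeated tag positions counted once, and both intervals held 0. These ratios count every listed bin, and the tables did not list the same bins. In the bins listed for a gene in both tables, Cox10 had 354 and 403 pairs, a log2 ratio of 0.08 (-0.13 to 0.29), Sdhaf2 had 21 and 27, with 0.25 (-0.62 to 1.15), and the ratio of Ndufaf2 was -0.71 (-1.08 to -0.34). Over all pcRNAs the ratio in such bins was -0.10. The median over the 7 genes was 0.07, beside -0.06 over all 5359 pcRNAs with as many pairs.

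**Figure D2:**
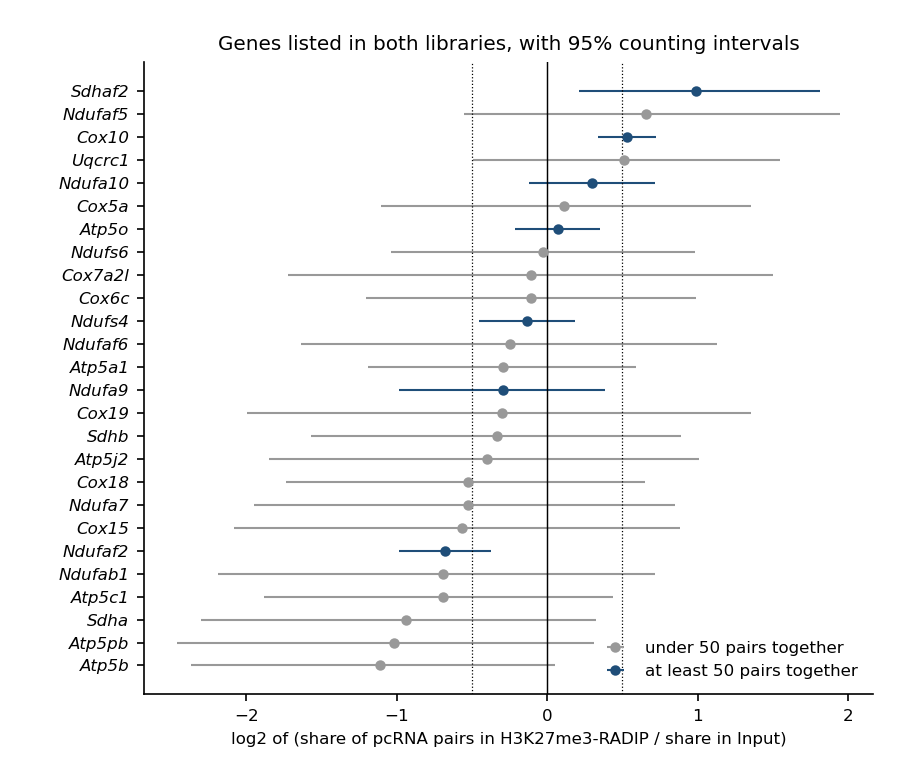
log2 ratio of each gene's share of pcRNA pairs, H3K27me3-RADIP over Input, for the 26 genes listed in both libraries, with 95% counting intervals as bars and dotted lines at 0.5 and -0.5. Only Sdhaf2, Cox10 and Ndufaf2 lie past a dotted line with an interval that leaves out 0.

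Of the 41 names, 6 were listed in Input only, or 14.6%, against 10.5% of all pcRNA names. Another 9 were listed in H3K27me3-RADIP only, or 21.95%, against 13.5%. These genes had 7 to 14 pairs, close to the smallest number that was listed at all. The highest in Input only were Cyc1 and Sdhaf3 with 14 pairs, Cox7b with 11 and Atp5g2, a gene of the rotor ring of ATP synthase, with 10. The highest in H3K27me3-RADIP only were Atp5d, a subunit of the central stalk, with 10 pairs, and Cox7b2, Ndufa12 and Ndufs1 with 9 each. Each lay in 1 bin, and absence from a table of significant pairs does not show that a contact was absent. With a q-value limit of 0.01, 29 members were listed in Input and 24 in H3K27me3-RADIP, in place of 32 and 35.

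The RNA tags of the chain came mostly from introns, in 90.9% of Input pairs and 90.7% of H3K27me3-RADIP pairs, beside 88.9% and 89.6% for all pcRNAs. Coding sequence held 2.77% and 3.28% of the tags, the 3′UTR 2.50% and 3.28%, the 5′UTR 0.485% and 0.618%, and other exons 3.33% and 2.10%. No region passed the 2-sided Fisher's exact test after adjustment (the lowest adjusted p was 0.129, for other exons). The antibody selection was therefore not seen to change which parts of these RNAs were caught, within an interval of -2.24 to 1.88 percentage points for introns.

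The mixture of tags differed greatly between genes. In the 5 genes with the most pairs, 3.15% of tags in Input and 3.74% in H3K27me3-RADIP were exonic, a term used here for all tags outside introns. In the other members, 24.8% and 26.8% were. In Sdhaf2, 9 of 21 and 23 of 45 tags were exonic, and 8 and 18 of these lay in the 3′UTR. In Ndufa10 the exonic share was 17.4% and 16.7%. The cytosolic ribosomal protein genes, another housekeeping group of short genes, had 56.8% and 57.9% exonic tags. The mitochondrial ribosomal protein genes had 12.9% and 15.5%, closer to the 9.08% and 9.28% of the chain.

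Every pair of a member joined an RNA to its own chromosome, while all pcRNAs together had 37 pairs between chromosomes in Input and 341 in H3K27me3-RADIP. The median distance between RNA and DNA tag was 17.4 kb without and 29.7 kb with antibody selection, beside 44.4 and 68.8 kb for all pcRNAs. Without Cox10 it was 13.1 and 16.8 kb, and the interval of that difference held 0 (-0.025 to 6.98 kb). Pairs within 25 kb fell from 57.9% to 46.6% of the members' pairs, a difference of -11.3 percentage points (95% Newcombe interval -14.8 to -7.74, adjusted p = 2.46e-09 by Fisher's exact test). Pairs over 100 kb rose from 16.4% (95% Wilson interval 14.5 to 18.4) to 29.99% (27.8 to 32.3), a difference of 13.6 percentage points (10.7 to 16.5, adjusted p = 4.08e-18 by Fisher's exact test). All pcRNAs went the same way, from 36.4% to 43.7% over 100 kb. The share from 25 to 100 kb was 25.7% and 23.4% (adjusted p = 0.316 by Fisher's exact test). The tests of these shares count all listed combinations of an RNA and a 25-kb bin, and the tables did not list the same ones. In combinations listed in both tables, the share over 100 kb differed by 4.38 percentage points (adjusted p = 0.00943 by Fisher's exact test). There the share within 25 kb differed by -4.49, which did not pass Fisher's exact test (adjusted p = 0.067).

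These longer distances rested on a few genes. Over 100 kb, Cox10 had 97 of its 371 pairs in Input and 284 of 577 in H3K27me3-RADIP, or 26.1% and 49.2%. Without Cox10 the members' share over 100 kb was 12.98% and 19.3%, a difference of 6.35 percentage points. Outside the 5 leading genes, no pair in Input and 1.29% of pairs in H3K27me3-RADIP lay over 100 kb away. These 5 pairs all belonged to Sdhaf2. The median distance of Cox10 was 45.6 and 91.7 kb, that of Ndufaf2 41.3 and 58.8 kb, that of Ndufs4 29.0 and 47.9 kb, that of Ndufa10 11.1 and 21.2 kb and that of Atp5o 20.0 and 23.6 kb. Among the 18 members with at least 10 pairs in each library, the median was longer in H3K27me3-RADIP in 11, beside 69.5% of all such pcRNAs.

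**Figure D3:**
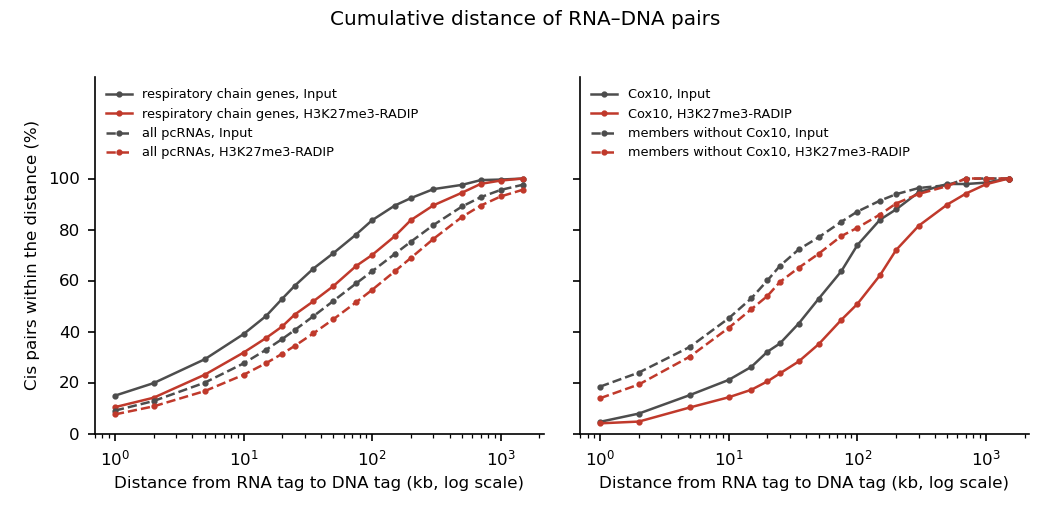
Percent of cis pairs within a given distance of the RNA tag (log axis, kb) in Input (grey) and H3K27me3-RADIP (red), for the chain and for all pcRNAs on the left and for Cox10 and the other members on the right. At 100 kb the red line of the chain stands at 70.0% and the grey line at 83.6%, and the gap is widest for Cox10.

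Members were also set beside pcRNAs from genes of like length. The members of over 100 kb, 4 listed in Input and 5 in H3K27me3-RADIP, had 23.8% and 40.9% of their pairs over 100 kb away. They include the long Atp5o model. All pcRNAs from genes of that length had 48.2% and 54.9%. In the class of 10 to 30 kb the members had 0% and 2.07%, and all pcRNAs 5.72% and 9.83%.

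Bins were then divided into those that overlap the RNA's own gene and those outside it, a division chosen after the distances had been seen. Bins over the own gene held 1140 of 1442 member pairs in Input (79.1%) and 1004 of 1617 in H3K27me3-RADIP (62.1%), which differ by -17.0 percentage points (95% Newcombe interval -20.1 to -13.8, adjusted p = 5.93e-24 by Fisher's exact test on pairs, over 8 comparisons). For all pcRNAs the shares were 63.9% and 55.5%. Scaled to all pcRNA pairs, the members' pairs outside their own genes were higher in H3K27me3-RADIP by 0.91 on the log2 scale (95% counting interval 0.71 to 1.12), beside 0.30 for all pcRNAs. Over their own genes they were lower, with -0.29 (-0.42 to -0.17), beside -0.20. The bins outside were not the same in both tables, since 29 were listed in Input, with 10.4 pairs each on average, and 57 in H3K27me3-RADIP, with 10.8 each. In the 18 bins outside that both tables listed, the members had 200 and 230 pairs, a log2 ratio of 0.09 (-0.19 to 0.37), beside 0.11 for all pcRNAs. In the 48 shared bins over the own gene they had 1017 and 909, with -0.27 (-0.40 to -0.14), beside -0.22. The higher count outside thus lay mostly in bins that only H3K27me3-RADIP listed, while the lower count over the gene was also found in shared bins.

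All 6 members with at least 20 pairs of each kind had a higher ratio outside than over the gene, as had 81.3% of 2794 such pcRNAs. The median difference between both ratios was 1.201 on the log2 scale in the 6 members and 0.63 in all. The direction was thus common among pcRNAs. These ratios include bins listed in 1 table only.

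For Cox10 the ratio, scaled to all pcRNA pairs, was higher outside the gene than over it. Bins over Cox10 held 241 and 259 pairs, a log2 ratio of -0.00 (-0.26 to 0.25). Bins outside held 130 and 318, a log2 ratio of 1.18 (0.88 to 1.49), but these were 12 and 27 bins with 10.8 and 11.8 pairs each on average. In the 10 bins outside that both tables listed there were 113 and 144 pairs, a log2 ratio of 0.24 (-0.12 to 0.61). The own-gene share went from 65.0% to 44.9% (adjusted p = 6.96e-09 by Fisher's exact test), and in shared bins from 68.1% to 64.3% (adjusted p = 0.659 by Fisher's exact test). Over all listed bins the ratio outside was 1.17 with repeated tag positions counted once, and 1.43 with a q-value limit of 0.01.

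Sdhaf2 and Ndufa10 showed the same division of listed pairs on fewer pairs. Over Ndufa10 there were 68 pairs in each library, and outside it 18 and 46, a log2 ratio of 1.25 (0.43 to 2.12), with adjusted p = 0.00749 by Fisher's exact test for the own-gene share. In the 2 outside bins of Ndufa10 that both tables listed there were 18 and 20 pairs, and the other 26 pairs lay in 2 bins listed in H3K27me3-RADIP only. Over Sdhaf2 there were 12 and 15 pairs, and outside it 9 and 30, a log2 ratio of 1.63 (0.52 to 2.89), but the change of its own-gene share did not pass Fisher's exact test (adjusted p = 0.121). Its 1 shared bin outside held 9 and 12 pairs, and the other 18 pairs lay in 2 bins listed in H3K27me3-RADIP only. For the name Atp5o, bins over the gene held 180 and 183 pairs and the others 17 and 40, with adjusted p = 0.0103 by Fisher's exact test, but the 1 shared bin outside held 9 pairs in each library. The 40 pairs include the 7 of the short model. The long model alone had 17 and 33 outside, a log2 ratio of 0.85 with an interval that held 0 (-0.04 to 1.79).

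Ndufs4 and Ndufaf2 had fewer pairs over the gene in H3K27me3-RADIP. Over Ndufs4 there were 123 and 91 pairs, a log2 ratio of -0.54 (-0.95 to -0.14), and outside it 42 and 71, a log2 ratio of 0.65 (0.08 to 1.24). The own-gene share passed Fisher's exact test with adjusted p = 0.00133. With a q-value limit of 0.01 this call was lost, at 74.5% and 69.2% (adjusted p = 0.399 by Fisher's exact test), and the ratio outside was -0.29. The 2 shared bins outside held 26 and 27 pairs, while all 5 bins over the gene were shared. Over Ndufaf2 there were 157 and 91 pairs, a log2 ratio of -0.90 (-1.28 to -0.51), and outside it 70 and 62, a log2 ratio of -0.28 (-0.80 to 0.23). Its own-gene share of 69.2% and 59.5% did not pass Fisher's exact test (adjusted p = 0.0824). In the 6 shared bins over the gene there were 144 and 91 pairs, a log2 ratio of -0.77 (-1.17 to -0.38).

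**Figure D4:**
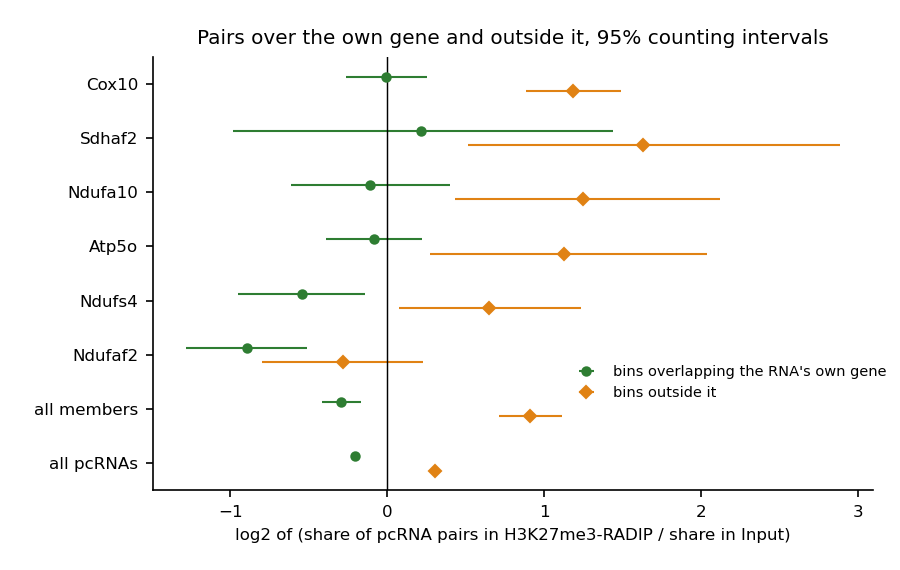
log2 ratio of the share of pcRNA pairs, H3K27me3-RADIP over Input, for pairs in bins over the RNA's own gene (green circles) and in bins outside it (orange diamonds), with 95% counting intervals, for 6 genes, all members and all pcRNAs. In every line the orange point lies to the right of the green one, and for Cox10 only the orange one leaves 0. All listed bins are counted, and in bins that both tables list the outside ratio is 0.24 for Cox10 and 0.09 for all members.

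The listed combinations of a member RNA and a 25-kb bin numbered 88 in Input and 116 in H3K27me3-RADIP. Both tables shared 66, which is 75% of the Input combinations and 56.9% of the H3K27me3-RADIP ones. For all pcRNAs the shares were 76.7% and 67.1%. Combinations found only in H3K27me3-RADIP held at most 17 pairs, and those found only in Input at most 16. In the shared combinations alone, the members' share within 25 kb was 60.1% and 55.7%, and this difference no longer passed the test (adjusted p = 0.067 by Fisher's exact test). There the share over 100 kb differed by 4.38 percentage points in place of 13.6, and the share over the own gene by -3.76 in place of -17.0, which did not pass Fisher's exact test (adjusted p = 0.151). Most of both differences thus came from combinations listed in only 1 table.

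Cox10 reached 18 bins in Input and 33 in H3K27me3-RADIP, with 16 in common. Beyond the 3′ end of the gene there were 50 and 184 pairs, spread over 4 and 14 bins, a log2 ratio of 1.77 (1.31 to 2.25). Upstream of the gene start there were 80 and 134, over 8 and 13 bins, a log2 ratio of 0.64 (0.23 to 1.05). In shared bins there were 50 and 81 pairs beyond the 3′ end, over 4 bins, with 0.59 (0.06 to 1.13), and 63 in each library upstream, over 6 bins. The nearest bins past the 3′ end held 19 and 28 pairs, then 13 and 27, then 10 and 17. The 2 farther ones of these overlap Hs3st3b1, which encodes a heparan sulphate sulphotransferase. Bins that were listed in H3K27me3-RADIP only and overlap a coding gene were 1 with Pmp22, a gene of peripheral myelin, with 9 pairs, and 1 with Arhgap44, with 9 pairs. Most of the bins between hold no protein-coding gene.

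The longest Cox10 contacts are shown by their DNA tags, given 5′ to 3′ on the strand of the tag with the centre base in capitals.
Cox10, farthest DNA tag in Input: cttggatcatccTccagttcagagt
Cox10, farthest DNA tag in H3K27me3-RADIP: tggttaaggagaAaactgtttacat
The first (chr11:65027807-65027831, minus strand) lay 1063 kb from its RNA tag and had 1 pair. The second (chr11:65173584-65173608, plus strand) lay 1206 kb away and had 2 pairs. Each had 1 exact match in the reference chromosomes.

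Other RNAs in the same bins were counted, with ratios as shares of all pairs. In several of these sets of bins they came from only 1 or 2 genes. They therefore do not measure how the DNA was covered in general. Over the gene, all bins of Cox10, Ndufs4 and Ndufa10 were listed in both tables, and the few other RNAs found were lower there. Over Cox10 the only other RNA was Arhgap44, with 59 and 32 pairs, a log2 ratio of -0.999 (-1.67 to -0.35). Over Ndufs4 the only one was Arl15, with -0.53 (-0.88 to -0.19), beside -0.54 for Ndufs4 itself. Over Ndufa10 there were Hdac4 and Agap1, with a ratio of -0.45 (-0.80 to -0.10), beside -0.11 for Ndufa10. Over Ndufaf2 the ratio of other RNAs was -0.42 (-0.82 to -0.03) in all bins and -0.32 (-0.76 to 0.11) in the 6 shared ones, beside -0.90 and -0.77 for Ndufaf2. Over Atp5o it was 0.06 (-0.15 to 0.27). In the 1 bin over Sdhaf2, 0 and 8 pairs of other RNAs were listed, all of Syt7. The part of these changes in the members' own values was not tested.

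Outside the genes the other RNAs went in both directions. Many of the bins there were listed for the member in H3K27me3-RADIP only, and the part of this choice of bins in the ratios was not tested, so values in shared bins are given as well. In all 29 bins outside Cox10, other RNAs, mainly Arhgap44, Hs3st3b1 and Map2k4, had 243 and 346 pairs, a log2 ratio of 0.39 (0.15 to 0.64). In the 10 bins that both tables listed for Cox10, only Arhgap44 and Hs3st3b1 were found, with 69 and 113 pairs, a log2 ratio of 0.59 (0.15 to 1.05). In the 3 bins outside Sdhaf2, which overlap Syt7 or Ppp1r32, the ratio of other RNAs was 0.76 (0.35 to 1.17), and in the 1 shared bin 0.10 (-0.73 to 0.93). Outside Ndufaf2 it was 0.29 (0.03 to 0.54), and 0.52 (-0.34 to 1.40) in the 1 shared bin. Outside Ndufs4, where Arl15 was the only other RNA, it was -0.02 (-0.21 to 0.17), and -0.21 (-0.70 to 0.27) in the 2 shared bins. Outside Ndufa10, where only Hdac4 and Agap1 were found, it was -0.06 (-0.26 to 0.15), and -0.40 (-0.68 to -0.12) in the 2 shared bins. Outside Atp5o other RNAs were lower, with -0.54 (-0.84 to -0.25), and -1.15 (-1.68 to -0.63) in the 1 shared bin.

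**Figure D5:**
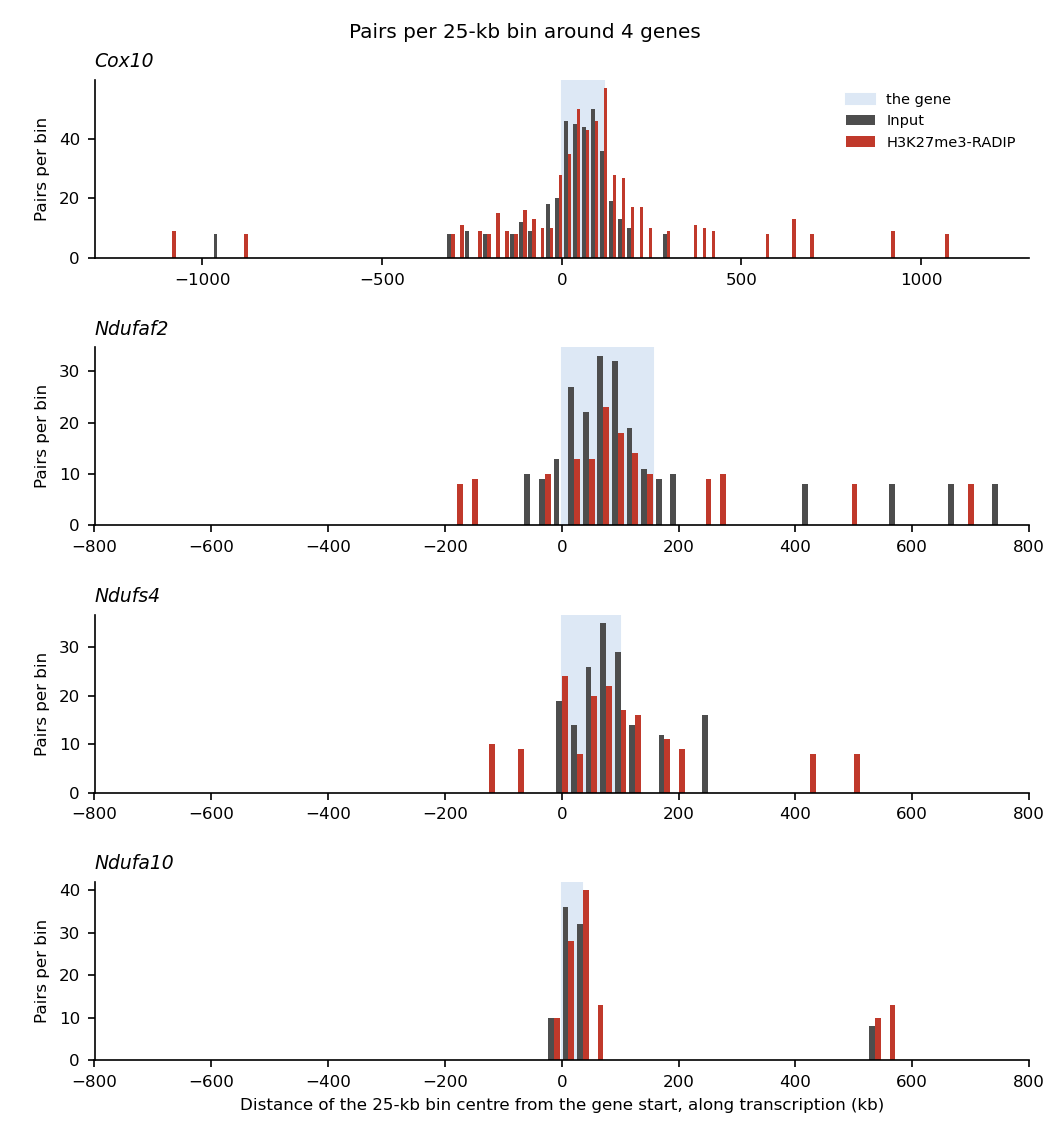
Pairs per 25-kb bin (bars, Input grey and H3K27me3-RADIP red) against the distance of the bin centre from the gene start along transcription (kb), for Cox10, Ndufaf2, Ndufs4 and Ndufa10, with the gene shaded. Red bars of Cox10 go on past the 3′ end to more than 1000 kb, while over Ndufaf2 the grey bars stand above the red ones in every bin within the gene.

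Ndufa10 was listed in 2 more bins in H3K27me3-RADIP. Its RNA was joined to a bin 536.4 kb past the gene start that overlaps Hdac4, a histone deacetylase gene, with 8 pairs in Input and 10 in H3K27me3-RADIP, and to the bin after it, with 13 pairs in H3K27me3-RADIP only. Ndufs4 was listed in H3K27me3-RADIP only in a bin that overlaps Fst, the gene of follistatin, with 9 pairs, and in 2 bins of Arl15, with 8 pairs each, while another bin of Arl15 held 16 pairs in Input only. Ndufaf2 had 21 bins in both tables together and shared only 7. Its far bins held 8 to 10 pairs each, and which of them were listed differed between the libraries.

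Distances differed for some genes with few pairs as well. Cox7a2l, a factor of respiratory supercomplexes, had 8 pairs in each library, but at a median distance of 4.45 and 22.7 kb. Uqcrc1 went from 0.49 kb to 8.07 kb, Sdhb from 2.22 kb to 10.5 kb, and Cox6c the other way, from 15.9 kb to 7.38 kb. Atp5a1, Atp5b and Cox5a also had shorter medians in H3K27me3-RADIP. Cox7a2l and Sdhb each had 1 listed bin per library, and it was not the same bin. With so few pairs these values are a description only.

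Technical measures of the tags were compared for the same pairs. Copies of a pair with the same position of both tags were 5.06% and 10.3% of member pairs, beside 6.79% and 9.74% of all pairs. Among member pairs over 100 kb they were 7.20% and 9.69%. Soft-masked repeats of the reference held the centre of 17.5% and 16.8% of the members' RNA tags, beside 15.3% and 15.0% of those of all pcRNAs. For DNA tags the shares were 12.8% and 13.8%, beside 14.1% and 12.3%.

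The products of the nuclear genes join subunits encoded by mitochondrial DNA, and no pair of a mitochondrial protein-coding RNA was listed. The mitochondrial ribosomal RNAs mt-Rnr1 and mt-Rnr2 had 30 and 71 pairs in Input and 16 and 49 in H3K27me3-RADIP, all with mitochondrial DNA.

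A further list of 49 genes of the same pathway held assembly factors and regulators with other names. Of these, 26 were listed, and 10 had at least 50 pairs together. Of the 10, 2 were higher by at least 0.5 on the log2 scale and 4 lower, beside 14.6% and 23.3% of all such pcRNAs, with a median of -0.18. Higher were Atpaf1, which helps assemble the head of ATP synthase, with 25 and 62 pairs (log2 ratio 1.202, 0.51 to 1.93), and Ppargc1b, a transcriptional coactivator of mitochondrial genes, with 139 and 234 (0.64, 0.33 to 0.96). Lower were Ttc19, a factor of complex III, with 142 and 75 (-1.03, -1.45 to -0.62), Timmdc1, an assembly factor of complex I (-0.79), Nubpl, which supplies iron-sulphur clusters to complex I (-0.55), and Lrpprc, which stabilises mitochondrial mRNAs (-0.51). Nrf1, a transcription factor of respiratory genes, had the most pairs, 887 and 935, with a log2 ratio of -0.03.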

How the data were processed

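RNA–DNA pairs of PGK12.1 cells were taken from 1 deposited table per condition, in which the 8 labelled libraries are merged. The only numerical values are p-values and q-values that the authors computed with a negative binomial model over combinations of an RNA and a 25-kb bin, keeping q-values up to 0.1. Per the submitters' processing notes, BWA 0.7.15-r1140 and mm10 were used. Lines of the tables were counted as pairs. Log2 ratios of genes compare shares of pcRNA pairs, and those of other RNAs in the same bins compare shares of all pairs. Gene models came from GENCODE M21, an older release than the authors' one, matched without version: 32 of 32 member identifiers in Input and 36 of 36 in H3K27me3-RADIP.

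Shares had Wilson intervals, differences Newcombe intervals and 2-sided Fisher's exact tests with Benjamini–Hochberg adjustment, and log2 ratios exact conditional intervals (all 95%, counting error only, as PCR copies carry no molecular identifier). A gene was past the fold at an absolute log2 ratio of 0.5 with at least 50 pairs. Distances ran between tag centres. Scripts were tested on simulated data. Python 3.11.15, numpy, pandas and scipy 1.17.1 were used.

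The genes named were those with the most pairs, the extreme ratios, exonic shares and distances, and the leaders listed in 1 library only. Genes with fewer pairs named by role, and the DNA bins, were picked with their values in view. The members, lists and tests were chosen with earlier results of these data known. Pairs before background removal and individual libraries were not analysed here.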

Additional observations from a re-analysis of the deposited data

How the results depend on the processing

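No paired analysis was possible because each condition is 1 merged table and carries no replicate numbers. In the alternatives run for them, the members' pairs over their own genes were a smaller share in H3K27me3-RADIP and the share over 100 kb a larger one, past the test wherever a test was run except for the own-gene share in shared combinations (-3.76 percentage points, adjusted p = 0.151 by Fisher's exact test). With equal weight per gene the own-gene share differed by -8.83. Equal weight, here and below, covers only the 18 genes with at least 10 pairs in each library. The difference of the members' share of pcRNA pairs (RADIP minus Input, percentage points, as below) turned to -0.00599 with a q-value limit of 0.01, -0.00842 without Cox10 (adjusted p = 0.0496 by Fisher's exact test, so past its limit) and -0.00174 without assembly factors. That of intron tags turned to 0.00147 with the q-value limit and 0.0273 with repeated tag positions counted once, and was -2.48 with equal weight per gene, which gave 2.23 for coding sequence. That of 5′UTR tags turned to -0.397 with the q-value limit. The share from 25 to 100 kb turned to 0.180 with the q-value limit, 1.33 without assembly factors, 0.103 in shared combinations and 5.85 with equal weight, where the share over 100 kb differed by 4.33. The difference within 25 kb was -4.49 in shared combinations, chosen after seeing the data. The median distance differed by 3.71 kb without Cox10 (interval -0.025 to 6.98), 3.67 kb without assembly factors and 3.52 kb in shared combinations, beside 12.3 kb. With the q-value limit, H3K27me3-RADIP held 76 combinations, of which 65.8% were shared. Without assembly factors there were 47 and 60 combinations. Past the fold with the q-value limit were 1 gene up and 2 down of 7, beside 16.1% and 24.5% of all such pcRNAs. Ndufs4, at -0.56, was added there and Cox10 lost. With repeated positions counted once, 1 was up and 1 down of 7, beside 14.3% and 23.2%, and Cox10 at 0.50 was just under the limit. From 20 pairs on, 4 were up and 8 down of 23, beside 18.1% and 26.2%. At a log2 ratio of 1 there were 0 and 0 of 7, beside 4.01% and 7.73%. Leaving out the long Atp5o model, also chosen after seeing the data, changed no direction or call of the shares over all members, the median distance or the combinations. Ratios and tests of single genes were not recomputed without it. The cause of these shifts was not tested. Far bins of the leading genes also held few pairs, so which bins were listed is uncertain near the smallest listed number.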
